A study of Mus musculus with 21 samples.

Results

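P5 cells, kept without drug for a nominal 5 passages after they had become resistant to the MEK inhibitor trametinib, were compared with the resistant cells they came from. The comparison takes 6 of the 21 samples of the series, 1 P5 and 1 resistant sample of each of lines #3, #7 and #9, and they were chosen by their labels and paired by line, with no measured value used. All samples come from primary murine pancreatic ductal adenocarcinoma (PDAC) cell lines of mice that carry the alleles Trp53 loxP/loxP and Ptf1a wt/Cre, in which a Cre recombinase made in the pancreatic lineage removes Trp53. Every state shares the same genotype. Resistant cells were grown up to 100 times their IC50 of trametinib and kept in that dose. P5 cells are a batch of the resistant cells moved to drug-free medium, P12 cells the same after 12 passages, and parental cells never had the drug. The title and group label give 5 drug-free passages for all 3 P5 samples, but the description of lines #7 and #9 gives 12, so that for these lines the time without drug is uncertain. There is 1 sample per line and state, and the lines serve as replicates. From genome sequencing of lines #3 and #9, the study concluded that resistant cells arose by expansion of a clone. Line #7 was not sequenced in that way.

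Trametinib blocks the kinases MEK1 and MEK2, which pass the signal of RAS and RAF on to ERK. Active ERK enters the nucleus and switches on early genes such as Egr1 and the ETS factors Etv4 and Etv5. It also switches on its own brakes, the DUSP phosphatases that remove phosphate from ERK and the Sprouty and Spred proteins that act on the pathway further up, so the RNA of these genes is widely used as a readout of ERK output.

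The deposited values are gene counts normalized by the authors with DESeq2, called normalized counts here. They summed to between 29.3 and 34.2 M (M for mega) per sample in these 6 samples. The step between low values puts this at about 26.3 to 33.7 M reads, with the value of 3 reads between 2.72 and 3.8. These limits cover counting error only. Ductal markers were uneven. Krt8, a keratin of simple epithelia, ranged from 140 in P5 of line #9 to 76935 in P5 of line #7. Epcam, a surface marker of epithelia, was listed at 0 in 5 of the 6 samples and at 3.61 in P5 of line #3. Leukocyte markers summed to between 206 and 462 normalized counts over 9 genes, with Cd3e at or under 3 reads in every sample. Endothelial, acinar and islet markers summed to at most 2147, 290 and 62.6. In tumour cell cultures of this kind a loss of cells of one type and less RNA per cell cannot be told apart.

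Of 18101 genes tested with limma, 17 rose (0.0939%) and 5 fell (0.0276%) in P5 at an adjusted p below 0.01 and a log2 difference above 1 or below -1, which is 0.122% in all. The highest-ranking rises were Etv5, Etv4, Egr1 and Spry4, a set of ERK-driven genes. In all 17 rises the lowest P5 sample lay above the highest resistant sample, as it did in 4.87% of all genes tested. Of the 5 falls, Adcy1 and Gm43601 had groups that did not overlap, against 3.68% of all genes, while Npr3, Arhgef26 and Cgn differed too much between lines for that. The genes were called on these same samples, so these counts add no support to the calls. At an adjusted p below 0.05, 65 genes (0.359%) rose and 22 (0.122%) fell. The median log2 difference over all tested genes was 0.02. Differences are log2(normalized count + 1), which understates the change of genes with few reads. The calls rest on few samples. The fit also takes the P5 and P12 samples of a line as independent, though they were more alike than P5 and resistant samples. Its spread can therefore be too narrow for this contrast. With P12 left out, a choice made after seeing the data, 4 rises and 0 falls were called. Leaving out line #3 left Etv4 and Etv5, leaving out line #7 left Etv5, and leaving out line #9 left Ace, Etv4, Etv5 and Spry4 and added Adgre5. A fit without the pairing by line called 6 rises and 1 fall, and a fit of the 6 samples alone called 0, with 1653 genes at an unadjusted p below 0.05.

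**Figure D1:**
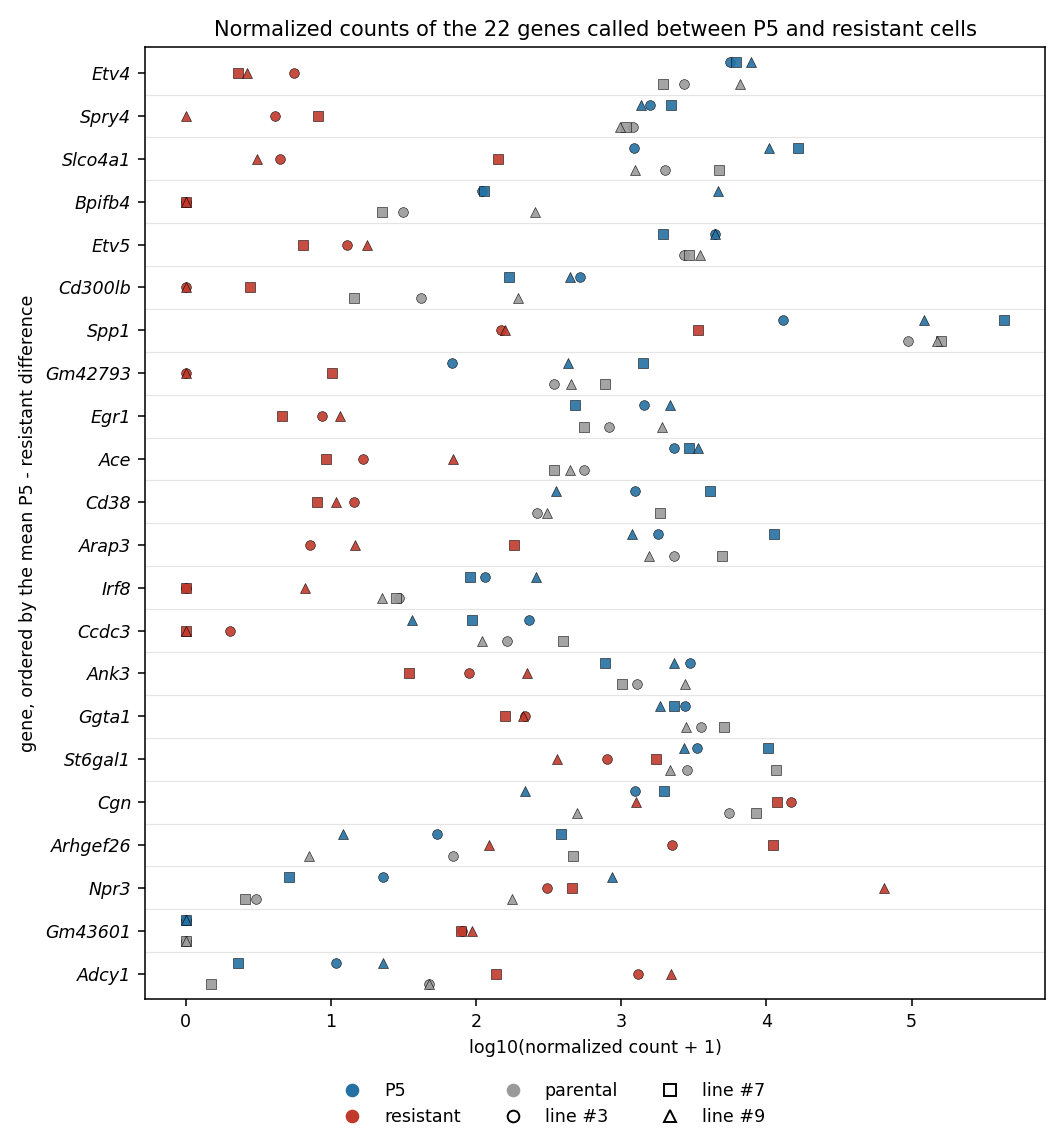
Normalized counts of the 22 called genes on a log10(normalized count + 1) axis, with 1 point per sample, P5 in blue, resistant in red, parental in grey and the line given by the marker shape. The blue points of the 17 rises lie to the right of the red ones, while those of Cgn, Arhgef26 and Npr3 overlap the red ones of another line.

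Among the ERK-driven transcription factors, Etv4 (chr11:101769742-101785371, minus strand, mm10 with GENCODE M21) encodes an ETS factor of the PEA3 group. It stood at 4.58, 1.28 and 1.62 normalized counts in resistant cells of lines #3, #7 and #9 and at 5618, 6127 and 7834 in P5. Resistant levels thus lay at or near the limit of 3 reads in every line, and P5 levels differed little between lines. The log2 difference was 10.97 ± 0.41 (SE, 3 lines, adjusted p = 1.03e-05). Here and below, SE is the standard error from the limma fit of 12 samples in 4 states. It does not measure the spread of the 3 line differences alone. Etv5 (chr16:22381309-22439719, minus strand), the related factor, went from 11.9, 5.41 and 16.7 to 4402, 1947 and 4418, a log2 difference of 8.21 ± 0.28 (SE, adjusted p = 9.07e-06). The 3 line differences of Etv5 lay between 7.96 and 8.42, close to each other. Egr1, a zinc finger factor induced within minutes by growth factors, went from 7.64, 3.57 and 10.6 to 1441, 479 and 2159, a log2 difference of 7.21 ± 0.31 (SE, adjusted p = 2e-05). Line #7 had the lowest Egr1 value in both states.

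Spry4, a Sprouty inhibitor of receptor tyrosine kinase signalling, stood at 3.09, 7.12 and 0 in resistant cells and at 1569, 2185 and 1375 in P5. Its log2 difference was 9.03 ± 0.52 (SE, adjusted p = 0.0002), and the samples of the 2 states lay far apart in every line. Dusp6, the cytoplasmic phosphatase of ERK, went from 60.7, 681 and 4.49 to 8352, 18671 and 4664, with a log2 difference of 7.20 ± 1.01 (SE, adjusted p = 0.0256). Resistant cells of line #7 thus had more Dusp6 RNA than those of the other lines, and the gene did not pass 0.01. Spred1, another inhibitor of the pathway, went from 812, 1441 and 818 to 6497, 3883 and 4898 (log2 difference 2.34 ± 0.38, SE, adjusted p = 0.0429).

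All 11 listed feedback inhibitors (Dusp4, Dusp5, Dusp6, Dusp7, Dusp9, Spry1, Spry2, Spry4, Spred1, Spred2 and Spred3) were above resistant cells in 3 of 3 lines, a pattern found in 15.2% of all genes tested. Spry4 was the 1 member called, and Dusp6 and Spred1 joined it at an adjusted p below 0.05. The median log2 difference over the list was 2.35, and the members ranged from 1.65 (Spred3) to 9.03 (Spry4). Spry2 went from 188, 400 and 11.3 to 1337, 2950 and 1229, and did not pass (adjusted p = 0.0824). Dusp4, a nuclear ERK phosphatase, spread most widely, with line differences of 9.98, 3.00 and 12.87. Its value of 333 in resistant cells of line #7 stood against 4.12 in line #3 and 0 in line #9. Against parental cells, the list's median in P5 was -0.00, with 5 of 11 members higher in P5 on average.

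**Figure D2:**
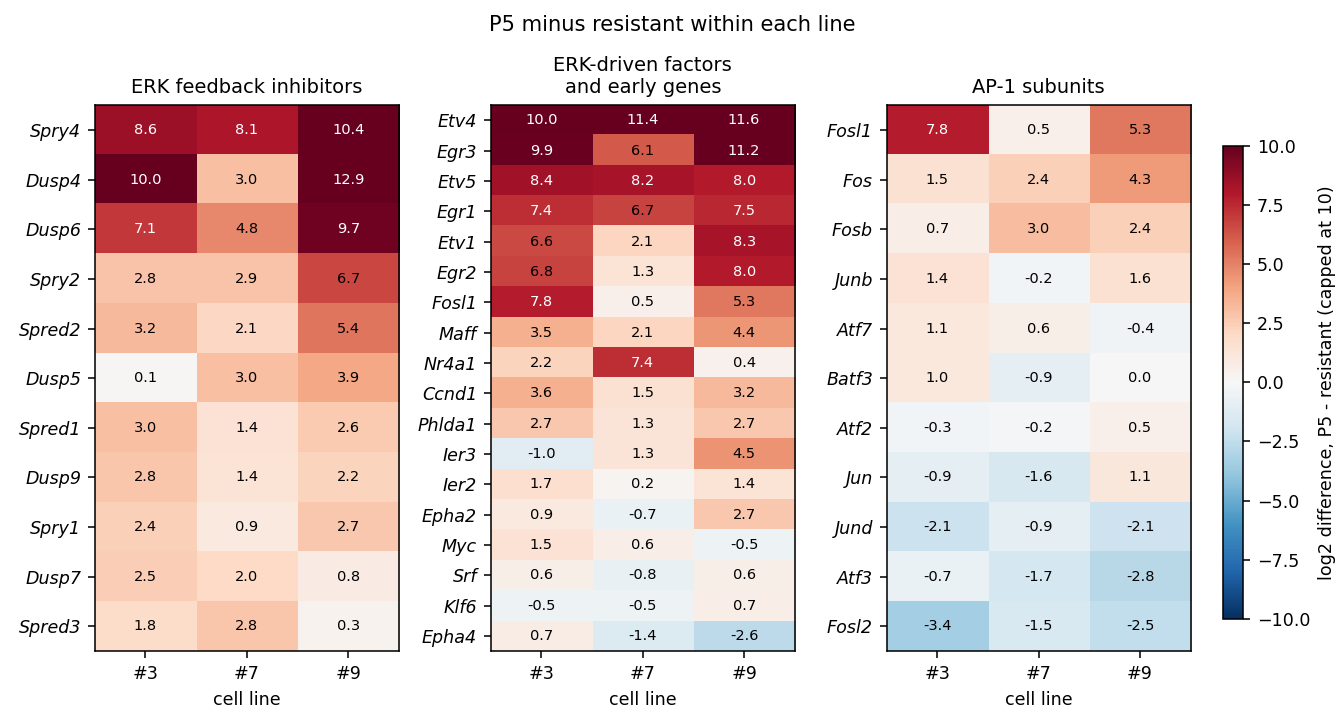
Log2 difference of P5 minus resistant cells for each line (columns) and each tested gene (rows) of 3 lists, with the value printed in each field and the colour capped at 10. All 11 feedback inhibitors are above 0 in every line, while the AP-1 list holds members on both sides.

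Of 18 listed ERK-driven factors and early genes, all tested, 12 were higher in 3 of 3 lines and none was lower in 3 of 3, where 14.4% of all genes were. The median was 3.05, and Etv4, Etv5 and Egr1 were the 3 called. Egr3, an early gene of the Egr1 family, was listed at 0 in all 3 resistant samples and at 933, 68.3 and 2341 in P5, at least 336-fold higher over the 3 lines (adjusted p = 0.0359). Line #9 had the highest P5 value and line #7 the lowest, and without line #9 the bound was 163-fold. Ccnd1, which encodes cyclin D1, went from 863, 10081 and 1787 to 10288, 28631 and 16885, with a log2 difference of 2.77 ± 0.58 (SE, adjusted p = 0.093). Line #7 again had the highest resistant value. Etv1, the remaining PEA3 factor, reached 1662 and 2508 in P5 of lines #3 and #9 but 17.6 in line #7. Myc, Srf, Klf6, Ier3, Epha2 and Epha4 differed in direction between the lines.

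The AP-1 transcription factor is a dimer of Jun, Fos and related proteins. Of its 13 listed subunits 11 were tested, with 3 higher and 3 lower in 3 of 3 lines, a median of 0.04 and 0 called at 0.01. Fosl2, which encodes the Fos-related protein FRA2, was at 7341, 9879 and 12718 in resistant cells and at 683, 3492 and 2253 in P5, and fell by 2.47 on the log2 scale (SE 0.40, adjusted p = 0.0415). The lowest resistant sample lay above the highest P5 sample. Fosl1, which encodes FRA1, was at 2.07, 1659 and 10 in resistant cells and at 704, 2329 and 434 in P5. The line #7 pair barely differed (0.49), and Fosl1 did not pass (log2 difference 4.54 ± 1.53, SE, adjusted p = 0.276). Jun itself was at 3115, 2151 and 1465 in resistant cells and at 1661, 706 and 3144 in P5, so line #9 differed in the other direction from lines #3 and #7 (adjusted p = 0.897). Fos and Fosb were higher in 3 of 3 lines, and Jund and Atf3 lower, none past the threshold.

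Genes of the kinase cascade itself differed little in RNA. Of 18 genes of the RAS-RAF-MEK-ERK cascade, 3 were higher and 6 lower in 3 of 3 lines, 0 were called, and the median log2 difference was -0.06. Rasa1, a GTPase-activating protein of RAS, had the highest mean difference, 1.34. By line, however, 0 members of the list were above 1 in line #3, 0 in line #7 and 1 in line #9. Among receptor tyrosine kinases 5 of 18 tested were higher and 5 lower in 3 of 3 lines, 0 called. Of 9 tested EGFR family ligands 4 were higher in 3 of 3 lines, namely Areg, Ereg, Hbegf and Tgfa, and none was lower, with a median of 1.70. Areg, which encodes amphiregulin, went from 6.21, 70.3 and 0 to 102, 913 and 579 (adjusted p = 0.133).

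The other rises were not members of the lists. Ace (chr11:105967945-105989964, plus strand), which encodes the angiotensin-converting enzyme, went from 15.5, 8.22 and 67.8 to 2316, 2931 and 3404. Its log2 difference was 7.02 ± 0.50 (SE, adjusted p = 0.000847), and P5 values were alike in the 3 lines. Ggta1, an enzyme that adds alpha-galactose to glycans, went from 216, 157 and 211 to 2740, 2314 and 1835, a log2 difference of 3.55 ± 0.27 (SE, adjusted p = 0.00137). St6gal1, a sialyltransferase, went from 802, 1722 and 357 to 3326, 10281 and 2702 (log2 difference 2.51 ± 0.24, SE, adjusted p = 0.00448), the smallest of the 17 rises. Line #7 had the highest St6gal1 value in both states.

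Spp1 (chr5:104435118-104441050, plus strand), which encodes the secreted phosphoprotein osteopontin, went from 148, 3392 and 157 to 13102, 435051 and 121336. The lines differed by more than 10-fold among themselves in each state, and the log2 difference was 7.68 ± 0.85 (SE, adjusted p = 0.00947). Gm42793 (chr5:104435121-104436372, plus strand), called as well, lies within Spp1 on the same strand, so reads of both cannot be told apart and its rise is not a second observation. Slco4a1, an organic anion transporter, went from 3.42, 141 and 2.08 to 1223, 16548 and 10382 (log2 difference 8.90 ± 0.94, SE, adjusted p = 0.0076). Cd38, an ectoenzyme that breaks down NAD, went from 13.3, 7.05 and 9.91 to 1250, 4068 and 354 (log2 difference 6.82 ± 0.74, SE, adjusted p = 0.00869). Line #9 had the lowest P5 value of Cd38 and the highest of Bpifb4.

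Bpifb4, of the family of lipid-binding BPI fold proteins, was listed at 0 in the 3 resistant samples and at 109, 113 and 4614 in P5, at least 486-fold higher over the 3 lines. Line #9 carried most of that difference, and without it the bound was 36.1-fold. Cd300lb, an immune receptor gene, stood at 0, 1.78 and 0 against 515, 168 and 445, at least 113-fold higher. Ccdc3, a secreted coiled-coil protein, stood at 1.03, 0 and 0 against 229, 93 and 35.2, at least 35.9-fold higher, or 18.8-fold without line #3. Irf8, an interferon regulatory factor best known from myeloid cells, stood at 0, 0 and 5.58 against 114, 89.6 and 256 (log2 difference 6.21 ± 0.62, SE, adjusted p = 0.00602). Leukocyte marker sums were 244, 316 and 227 in resistant cells and 462, 354 and 206 in P5 of lines #3, #7 and #9, and their part in the Cd300lb and Irf8 values was not tested. Arap3, a GTPase-activating protein for ARF, and Ank3, the scaffold ankyrin G, completed the rises with log2 differences of 6.75 ± 0.57 and 4.30 ± 0.38 (SE).

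Promoters of 3 rises are shown, as RefSeq has them for GRCm38.p6, because these genes moved together and the PEA3 and AP-1 factors bind known short motifs. Each window runs from 250 bases before to 50 bases after a start, and capitals mark a match. The first is a window of Etv5 (chr16:22439521-22439820, minus strand), the highest-ranking gene, in which none of the motifs was found. The second is the window of St6gal1 (chr16:23290220-23290519, plus strand) that holds a match to the loose AP-1 pattern, with A as its middle base. The third is that of Spp1 (chr5:104434861-104435160, plus strand) that holds the ETS motif on the opposite strand.
Etv5: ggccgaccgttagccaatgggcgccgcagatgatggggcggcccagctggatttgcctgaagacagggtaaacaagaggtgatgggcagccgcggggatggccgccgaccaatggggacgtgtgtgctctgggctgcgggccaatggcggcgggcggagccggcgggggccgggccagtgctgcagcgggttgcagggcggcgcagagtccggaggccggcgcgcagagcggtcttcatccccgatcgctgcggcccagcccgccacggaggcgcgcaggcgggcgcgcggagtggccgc
St6gal1: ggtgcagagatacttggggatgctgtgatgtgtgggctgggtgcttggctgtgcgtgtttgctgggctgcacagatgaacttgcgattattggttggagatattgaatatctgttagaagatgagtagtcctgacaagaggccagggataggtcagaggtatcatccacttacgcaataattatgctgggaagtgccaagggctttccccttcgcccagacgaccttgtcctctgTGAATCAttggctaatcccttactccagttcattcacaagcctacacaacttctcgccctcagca
Spp1: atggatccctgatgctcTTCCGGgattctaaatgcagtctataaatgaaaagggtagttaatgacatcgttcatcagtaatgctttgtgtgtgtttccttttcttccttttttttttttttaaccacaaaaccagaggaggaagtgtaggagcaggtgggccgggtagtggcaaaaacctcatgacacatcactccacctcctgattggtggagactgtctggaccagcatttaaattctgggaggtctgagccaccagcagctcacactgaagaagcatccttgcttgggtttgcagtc
The motifs searched on both strands were TGANTCA (AP-1), CCGGAA (ETS), TGACGTCA (CRE) and GGAATG (TEAD). The AP-1 pattern is loose, since it allows any middle base where the usual AP-1 site has C or G. Of the 17 rises 11 had a window. St6gal1 was the 1 gene with a match to the loose AP-1 pattern and Spp1 the 1 with the ETS motif. Of the 11826 tested genes with a window, 6.87% and 28.4% held them in any window. The St6gal1 match, TGAATCA, is thus not the usual AP-1 site. The CRE motif, held by 3.38% of genes, was in none of the 11. The TEAD motif, held by 14.8%, was in none of the rises and in 1 of the 4 falls with a window, Arhgef26. A match describes letters and no match says nothing of a factor.

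Of the 5 falls, Cgn (chr3:94760069-94786492, minus strand) encodes cingulin, a scaffold of tight junctions. It was at 14868, 11813 and 1261 in resistant cells and at 1244, 1981 and 215 in P5, and fell by 2.90 on the log2 scale (SE 0.28, adjusted p = 0.00448). P5 lay below resistant cells in each line and also below parental cells, which had 5567, 8462 and 492. Adcy1 (chr11:7063489-7178506, plus strand), an adenylyl cyclase that makes cAMP, was at 1306, 137 and 2212 against 9.89, 1.3 and 22, and fell by 6.47 (SE 0.58, adjusted p = 0.00317). Npr3, the clearance receptor of natriuretic peptides, was at 309, 456 and 64679 against 21.7, 4.13 and 864, and fell by 5.49 (SE 0.61, adjusted p = 0.00947). Line #9 stood far above the others for Npr3 in both states. Arhgef26, an exchange factor for small GTPases, was at 2235, 11080 and 122 against 52.6, 382 and 11.1, and fell by 4.53 (SE 0.48, adjusted p = 0.0076). Gm43601 (chr5:47153651-47154595, plus strand), a predicted gene, was at 78.7, 78.3 and 92.2 in resistant cells and listed at 0 in every P5, P12 and parental sample of these lines, at least 27.5-fold lower in P5.

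Single members of other lists lay at an adjusted p between 0.01 and 0.05, where 0.359% of all genes rose and 0.122% fell at a p below 0.05. Bcl2, which holds back apoptosis, rose from 25.5, 179 and 167 to 1166, 1265 and 2044 (log2 difference 3.96 ± 0.50, SE, adjusted p = 0.0175). It was the 1 member of 11 tested BCL2 family genes at that level, and 2 of the 11 were higher and 4 lower in 3 of 3 lines, with a median of -0.30. Amotl2, a junction protein and target of YAP, fell by 2.06 (SE 0.25, adjusted p = 0.0157) from 7867, 20667 and 5925 to 1577, 3719 and 2258. Amotl2 was the 1 of 9 tested YAP targets and partners at that level, and 4 of the 9 were lower in 3 of 3 lines (Amotl2, Lats2, Ajuba and Ptpn14) and 2 were higher (Amotl1 and Axl). The list had 11 symbols, of which 9 were found among the deposited gene names, and the rest have no value here. Gadd45b, a stress gene listed with the DNA methylation machinery, fell by 3.88 (SE 0.62, adjusted p = 0.0415). The methyltransferases of that list did not pass, with log2 differences of 0.39 ± 0.38 for Dnmt1, -0.97 ± 0.39 for Dnmt3a and -0.48 ± 0.77 for Dnmt3b (SE). Cda, a cytidine deaminase that inactivates the drug decitabine, rose from 5.09, 31.9 and 27.2 to 64.6, 462 and 174 (log2 difference 3.29 ± 0.45, SE, adjusted p = 0.0236).

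Epithelial and mesenchymal lists held members on both sides. Of 20 tested adhesion and junction genes 4 were higher and 7 lower in 3 of 3 lines, and Cgn was the 1 called. The list's median was -0.44, or -0.10 with genes at the limit of 3 reads set to their bound. Cdh1, which encodes E-cadherin, was at 73.1, 16401 and 8.68 in resistant cells and at 2106, 17116 and 46.2 in P5 (log2 difference 2.39 ± 1.05, SE, adjusted p = 0.441). Line #3 showed the widest difference, line #7 was high in both states, and line #9 was low in both. Cdh2, which encodes N-cadherin, was at 18543, 29631 and 10012 against 9506, 5064 and 6022, lower in each line (log2 difference -1.42 ± 0.41, SE, adjusted p = 0.2). Vim and Zeb1, a filament protein and a repressor of Cdh1, differed in direction between the lines, with adjusted p of 0.746 and 0.902. Zeb1 belongs to a list of 10 transcription factors that drive epithelial-mesenchymal transition, all tested. Of these, 4 (40%) were higher and 0 lower in 3 of 3 lines, against 15.2% and 14.4% of all genes, and 0 were called. The list's median was 0.82, and by line it was 2.15, 0.15 and 0.42.

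Of 22 mesenchymal structural genes, all tested, 8 were lower in 3 of 3 lines (Cdh2, Tagln, Cnn1, Thy1, Lox, Loxl1, Postn and Sparc) against 14.4% of all genes, 2 were higher (S100a4 and Mgp), and 0 were called. The median was -0.97. Sparc, a matrix glycoprotein, was at 200278, 10522 and 201790 against 29709, 1214 and 34025, with line differences between -3.11 and -2.57 (adjusted p = 0.204). Mgp, which encodes a matrix inhibitor of calcification, differed the other way, from 1.05, 0 and 729 to 801, 199 and 14299 (adjusted p = 0.0602). Proteoglycan genes had a median of -1.18, with 6 of 13 tested lower and 1 higher in 3 of 3 lines. Dcn, which encodes decorin, was at 51487, 1424 and 268 against 806, 1.92 and 247, almost level in line #9 (adjusted p = 0.284). Igfbp2, a binding protein of insulin-like growth factors, was at 5384, 218 and 37056 against 706, 1.5 and 279 (adjusted p = 0.156). The summed level of 10 fibroblast markers was 165629, 1925 and 577899 in resistant cells and 51938, 402 and 82972 in P5. Of the 9 tested, however, 2 were lower and 1 was higher in 3 of 3 lines and 6 were mixed, with line medians of -0.05, 0.00 and -1.11. Lum, 1 of the 10, was listed at 0 in both states of lines #7 and #9. The part of such cells in these values was not tested.

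Classical subtype and gastric genes were higher mainly in line #7. Of 21 tested 6 were higher and 0 lower in 3 of 3 lines, and Sox9 was the 1 that rose at an adjusted p below 0.05, from 54.6, 37.6 and 679 to 4056, 3203 and 2919 (log2 difference 4.89 ± 0.81, SE, adjusted p = 0.0469). Sox9 is a factor of pancreatic ducts and progenitors. The list's median was 1.41, or 1.08 with genes at their bound, and by line it was 0.92, 2.11 and 0.00. In line #7, 17 of the 21 were above 1 on the log2 scale. Muc5ac, a gastric mucin, went from 9.51, 6.58 and 0 to 148, 30351 and 20.2 (adjusted p = 0.0851). Against parental cells the list stayed low in P5, with a median of -2.36 and 3 members higher. Of 20 tested chemokines and cytokines 7 were higher and 1 lower in 3 of 3 lines, with 0 called.

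**Figure D3:**
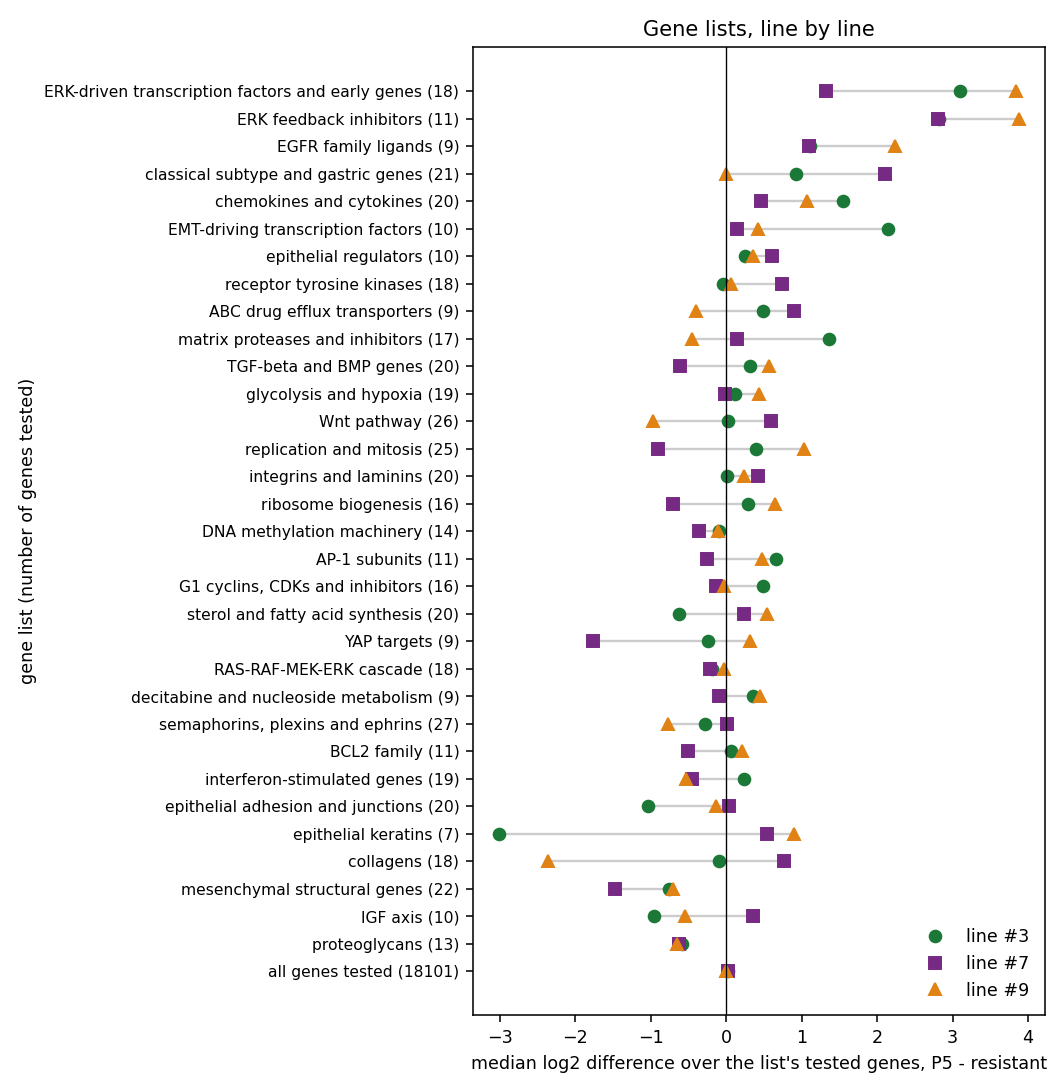
Median log2 difference of P5 minus resistant cells over the tested genes of each of 32 lists, for lines #3, #7 and #9, ordered by the median of the mean differences, with all genes tested in the lowest row. The feedback inhibitors and the ERK-driven factors and early genes lie right of 0 in every line, the RAS-RAF-MEK-ERK cascade lies at -0.19, -0.22 and -0.03, and replication and mitosis at 0.39, -0.90 and 1.03.

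Proliferation genes went in opposite directions in different lines. Of 25 replication and mitosis genes, 22 were higher in P5 of line #3, 0 in line #7 and 25 in line #9, so 0 had the same direction in 3 of 3 lines. Mki67, a marker of cycling cells, was at 8568, 22996 and 10846 in resistant cells and at 13991, 12314 and 19551 in P5 (log2 difference 0.22 ± 0.36, SE, adjusted p = 0.911). Resistant cells of line #7 had the highest Mki67 of the 6 samples and P5 cells of that line the lowest of the 3 P5 samples. The 16 ribosome biogenesis genes split the same way, with medians of 0.29, -0.70 and 0.65. The difference between lines cannot be tested here, with 1 sample per line and state.

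The lines were also read one by one, which sets 1 sample against 1 and has no replicate check. Between P5 and resistant cells, 3016 tested genes were above 1 and 2306 below -1 on the log2 scale in line #3, 3862 and 1946 in line #7, and 2628 and 2754 in line #9. In all 3 lines 651 were above 1 and 305 below -1. The 8 genes whose line differences lay farthest apart, among those reaching 100 normalized counts, were Top3b, Nkain4, Mybpc1, Krt7, Isx, Itga8, Fgf2 and Cldn2. Krt7, a ductal keratin, was at 6278, 150 and 370 in resistant cells and at 25.2, 14610 and 32.9 in P5, and Cldn2, a pore-forming claudin, at 43.4, 17 and 114 against 5.86, 43299 and 1163. Both were thus high in P5 of line #7 and low in that of line #3. Fgf2, a growth factor, was at 254, 0 and 0.732 against 42.3, 2832 and 363. Itga8, an integrin subunit, was at 0, 12.4 and 0 against 96.9, 0 and 1335. Nkain4, Mybpc1 and Isx were highest in resistant cells of line #3 or #9 and at 262 or less in every P5 sample. Top3b, a topoisomerase gene, was listed at 0 in P5 of line #7 and at 518 in P12 of that line, with no order among the states.

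**Figure D4:**
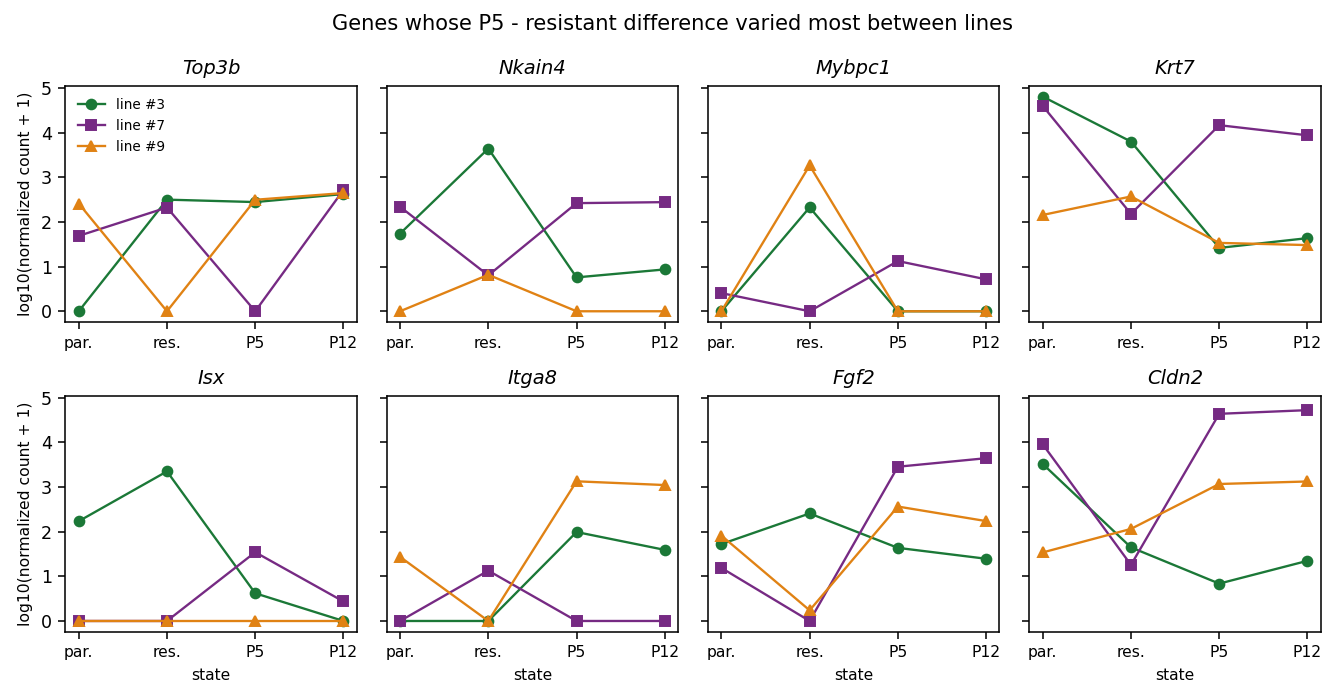
Normalized counts of the 8 genes with the widest range of line differences, on a log10(normalized count + 1) axis, in parental (par.), resistant (res.), P5 and P12 cells, with 1 line per cell line and 1 sample per point. Krt7, Cldn2 and Fgf2 are high in P5 of line #7, at 14610, 43299 and 2832.

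P5 was set beside the other states of the same lines, which share its 3 samples. Against P12 0 of 18101 genes (0%) were called, with 51 at an unadjusted p below 0.05 and a smallest adjusted p of 1. The spread in this fit came from all 4 states, while P5 and P12 samples of a line were more alike than P5 and resistant samples. It was therefore wide for this contrast, and 0 calls cannot show that the 2 states were equal. The fit of those 2 states alone called Gm10052. Among genes above 100 normalized counts in either sample, 4.37%, 4.17% and 2.46% differed by more than 2-fold between P5 and P12 in lines #3, #7 and #9, against 24.8%, 24.2% and 23.6% between P5 and resistant cells. In lines #7 and #9 the description gives 12 passages for P5 as well, so the 2 states may not differ in time without drug there. The deviations of P5 and P12 samples of a line from their state means were correlated across genes, which are not independent, with r between 0.844 and 0.891.

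Against parental cells 2 genes (0.011%) were called, with 1756 at an unadjusted p below 0.05 in limma. Few calls did not mean parental levels. The median log2 difference of P5 minus parental cells was -2.29 for adhesion and junction genes and -3.26 for epithelial keratins. It was 1.38 for mesenchymal structural genes and 2.00 for collagens, against 0.02 over all genes tested. Other lists lay near 0, such as the RAS-RAF-MEK-ERK cascade at -0.13. Tenm3, a teneurin of cell adhesion, was at 162, 45.8 and 274 in parental and at 6415, 1788 and 8222 in P5 cells (log2 difference 5.15, adjusted p = 0.000143), and at 6051, 2300 and 17685 in resistant cells. Cldn6, a claudin of embryonic epithelia, was at 4313, 5971 and 1048 in parental cells and listed at 0 in P5, at least 1253-fold lower (adjusted p = 0.000824). It stood at 0, 4.07 and 1.26 in resistant cells. Neither gene differed between P5 and resistant cells past the threshold (adjusted p = 0.554 for Tenm3 and 0.634 for Cldn6). Leaving out any 1 line left 0 calls against parental cells.

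Of the 17 rises, 7 lay above the parental sample in 3 of 3 lines (Ace, Bpifb4, Cd300lb, Cd38, Etv4, Irf8 and Spry4) and Ggta1 below it, none of them past the threshold. The share of all genes with that pattern was not computed. Because the rises were picked for high values in these same P5 samples, their count cannot show an excess over parental cells. Parental levels of Ace were 556, 343 and 442, against 2316, 2931 and 3404 in P5 (adjusted p = 0.257). Etv4 stood at 2705, 1931 and 6573 in parental cells, against 5618, 6127 and 7834. Spp1 differed in direction, since P5 of line #3 had 13102 against 95322 in parental cells and P5 of line #7 had 435051 against 158447.

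The lines without a P5 sample gave a separate reading of the same genes. Lines #4, #6 and #10 have resistant and P12 samples, none of which entered the comparison of P5, though they had 12 passages without drug. In them 37 of 17141 genes (0.216%) rose and 21 (0.123%) fell. All 17 rises of P5 were on average higher in P12 of these lines, where 49.3% of all genes were, and 5 were called there, Etv4, Etv5, Egr1, Spry4 and Ace. Of the 5 falls 4 were lower, against 50.7% of all genes, and 0 were called. Etv4 was at 0, 0 and 2.86 in resistant cells of lines #4, #6 and #10 and at 5437, 5789 and 4827 in P12. Ace was at 15.2, 10.9 and 2.22 against 2774, 972 and 436. Gm43601 was the exception, at 130, 0 and 0 in resistant cells against 120, 88 and 0 in P12. Ank3 and Irf8 were not higher in each of the 3 lines, since Ank3 went from 2938 to 1997 in line #10 and Irf8 was listed at 0 in both states of line #6. Of the 65 rises at an adjusted p below 0.05, 63 were tested here and 62 were higher, the exception being Pcyt1b, and 21 of the 22 falls were lower. The genes were picked in the first comparison, and the time without drug differs between the 2.

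**Figure D5:**
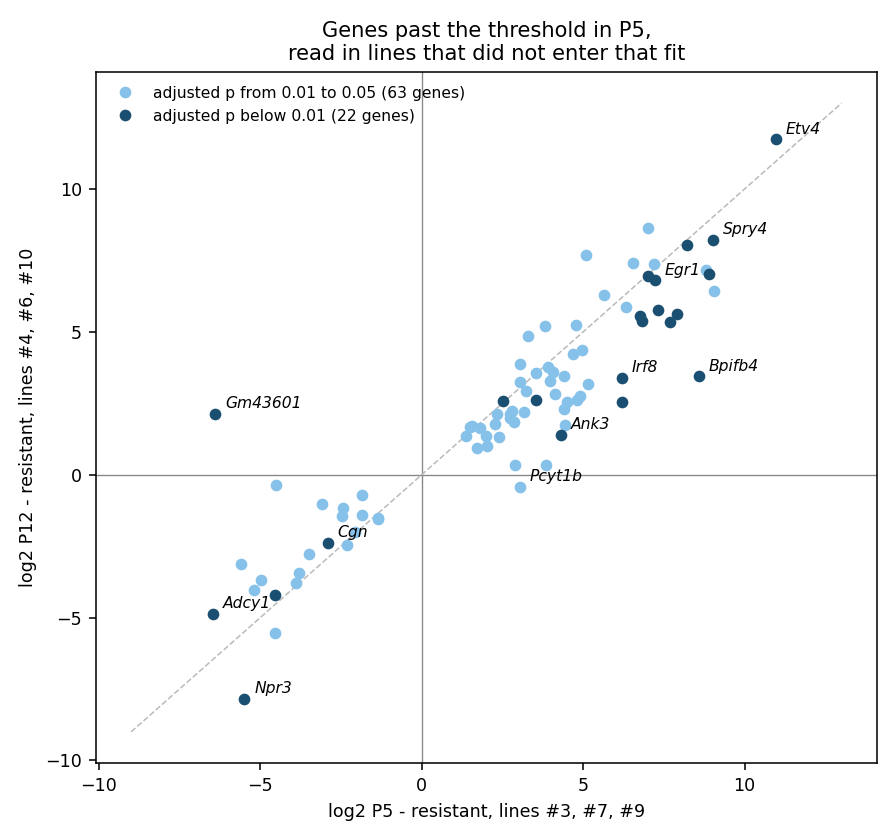
Mean log2 difference of P12 minus resistant cells in lines #4, #6 and #10 (vertical) against that of P5 minus resistant cells in lines #3, #7 and #9 (horizontal), with 1 point per gene at an adjusted p below 0.05 in the horizontal comparison and a dashed line of equality. Points have the same sign on both axes except Gm43601 and Pcyt1b.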

How the data were processed

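RNA-seq of 21 samples of 6 lines was deposited as 1 table of 34478 genes. Its values are a signal: DESeq2-normalized gene counts made by the authors, who used bcl2fastq 2.19 or CASAVA 2.17, Skewer, Salmon 0.12, TXImport and DESeq2 1.18 with mm10 and a stranded mRNA kit. More than 1 sequencer model was used and not assigned to samples, so no within-batch value could be given. Steps between low values did not give back whole reads (69.1% to 78.9% of low values lay within 0.1 of a multiple), so count models were not used. The step served to estimate reads per sample.

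Log2(value + 1) was tested with limma 3.58.1 (trend, R 4.3.3) on the 12 samples of lines #3, #7 and #9 in 4 states, with genes of at least 10 in at least 3 samples and the line as a block, and Benjamini-Hochberg adjustment. The contrast equals the mean difference within lines. A gene was called at an adjusted p below 0.01 and a log2 difference above 1 or below -1. Lines pair the samples: deviations of P5 and resistant samples of the same line correlated with r from 0.556 to 0.59. Exact tests over 3 pairs cannot go below p = 0.25 and were not used. A fold against a group at or under 3 reads in every sample was computed from the means as a bound. The steps were tested on simulated data for P5 against resistant cells. Of 100 genes given a log2 difference of 2, 26 were called, and of 100 given a difference of 4, 67 were called. Of the unchanged genes 0 were called. A gene or list without a call here can therefore still have changed. The simulated noise was independent between samples and had 1 size per gene in all 4 states. Real P5 and P12 samples of a line were more alike, so the 0 does not give the rate of false calls in the real data.

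The part of the series, the gene lists and the tests were chosen with earlier results of these data known, and the lists come from general knowledge. Named genes were the 12 largest rises and falls called with 1 direction in 3 of 3 lines and a mean of at least 100 in the higher state (without predicted genes), up to 6 called members per list, a set of ERK, adhesion, proliferation and methylation genes, the 8 with the widest range over lines, and the 6 largest each way against P12 and parental cells. Other genes were named after their values were seen. Every column of the table was mapped. Alternatives were pseudocounts of 0.5 and 8, other filters and scaling, no block, no trend, fits of the compared states alone or of all samples, a threshold of 0.05, and each line left out. Coordinates are of GENCODE M21 (31829 names matched) and promoters of RefSeq. Some items, an allele and single genes among them, are not reported here.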

Additional observations from a re-analysis of the deposited data

How the results depend on the processing

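The number of calls changed with many of the alternatives. For P5 against resistant cells, 17 rises and 5 falls became 11 and 3 with a pseudocount of 8, and 6 and 1 without the replicate block. They became 0 and 0 with the compared states alone, 84 and 34 with the block over all 21 samples (14 of the 22 calls shared), 56 and 17 over all 21 samples without the block, and 65 and 22 at an adjusted p below 0.05. Falls were 1 with a mean of at least 100 and 2 without the variance trend. Leaving out 1 line gave 1 to 5 rises and 0 falls. With P12 left out of the fit there were 4 rises and 0 falls, and with P5 of line #3 alone 0 and 0, both chosen after seeing the data. Against P12, 0 calls became 1 with the compared states alone. Against parental cells, 2 calls became 1 with a mean of at least 100, 1 without the block, 0 with the compared states alone, 5 over all 21 samples with or without the block, 4 at 0.05, 0 with P5 of line #3 alone and 0 without any 1 line. The share of called genes with the same direction in the other lines, 95.5%, was 100% with a mean of at least 100 and ranged from 95% to 100% with 1 of those lines left out. Some of these fits differ in their samples and in how alike these are. The cause of the shifts was not tested.

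Of 41 named genes, the 16 called kept their direction in every alternative that tested them, in 127 cases past the threshold and in 128 not. Directions turned only in genes that were not called. With 1 line left out, Krt7 ranged from -5.68 to 1.57, Nkain4 from -2.10 to 1.33, Mki67 from -0.10 to 0.78, Jun from -1.26 to 0.10, Zeb1 from -1.09 to 0.72 and Top3b from -3.95 to 4.05, with Mki67 at -0.03 without line #3. Over all 21 samples Top3b came to -0.13 with the block and -1.44 without it, and Tenm3 to 0.14 without it. With P5 of line #3 alone, Cldn2 came to -1.38 and Dnmt3b to 0.13. Depth limits genes at or under 3 reads in resistant cells, whose fitted differences depend on the pseudocount.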

Other observations

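Further genes past an adjusted p of 0.05 between P5 and resistant cells are given here, named after their values were seen. Megf10, an engulfment receptor, rose from 5.04, 20.9 and 11 normalized counts in lines #3, #7 and #9 to 5333, 2180 and 12298 (log2 difference 8.81 ± 1.10, SE, limma adjusted p = 0.017). Trib2, a pseudokinase, rose from 172, 64.7 and 150 to 2256, 1361 and 9625 (adjusted p = 0.0346). Hmga1, which encodes a chromatin protein, rose from 1911, 668 and 409 to 7577, 5811 and 6602 (adjusted p = 0.0247). Itga6, a laminin receptor subunit, rose from 77.6, 1592 and 2232 to 6972, 33191 and 25889 (adjusted p = 0.0429). Among falls, Flnc, which encodes the actin crosslinker filamin C, went from 37319, 32545 and 42476 to 9818, 2954 and 11272 (adjusted p = 0.0236), and its groups did not overlap. Il6st, the shared receptor subunit of the IL-6 family, went from 11711, 9944 and 20647 to 3752, 4151 and 9468 (adjusted p = 0.0485).

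The FGF receptors did not follow each other, though none passed the threshold. Fgfr1 was at 457, 8.04 and 2876 in resistant cells and at 16098, 49.2 and 24571 in P5 (adjusted p = 0.459). Fgfr2 was at 1099, 159 and 7292 against 93.7, 11 and 160 (adjusted p = 0.52). Fgfr3 was at 1998, 899 and 397 against 368, 89.9 and 97.5 (adjusted p = 0.325). Each of the 3 differed in 1 direction in every line. Of 18 collagens, all tested, 3 were higher and 4 lower in 3 of 3 lines and 11 were mixed, with line medians of -0.10, 0.76 and -2.36. Col12a1, one of the 4, was at 11340, 1716 and 23104 against 985, 71.5 and 1266, lower in each line (adjusted p = 0.23).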
